A study of Mus musculus with 4 samples.

Results

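The two-pore domain potassium (K2P) channel genes were described in melanotropes and corticotropes, the pair of mouse pituitary cell types that make pro-opiomelanocortin. The members were chosen by gene symbol from the deposited table of RNA-seq values, and no measured value entered the choice. They were Kcnk1, Kcnk2, Kcnk3, Kcnk4, Kcnk5, Kcnk6, Kcnk9, Kcnk10, Kcnk12 and Kcnk13, 10 of the 24063 genes in the table, with 15 of its 33072 RefSeq transcripts. There were 2 libraries of melanotropes, the cells of the intermediate lobe, and 2 of corticotropes, which belong to the anterior lobe. All 4 came from mice of strain C57B6 that carry the POMC-EGFP transgene, in which Pomc regulatory sequence drives EGFP, and the cells of each dissected lobe were sorted by their green fluorescence. No treatment is named, and neither the age of the mice nor the number of animals behind a library is given in the labels. Separate sorts or animals behind the replicates are not stated either, and a p-value here therefore reflects the spread between libraries, which may be technical.

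K2P channels are potassium channels whose subunits each carry a pair of pore loops and assemble as dimers. They are open at rest to varying degrees and pass the background, or leak, potassium current that holds the membrane potential near the potassium equilibrium and so sets how easily an excitable endocrine cell fires. Their families differ in what moves them. TREK channels respond to stretch, heat, lipids and phosphorylation by protein kinase A, and TASK channels to extracellular acid and to receptors coupled to Gq. TWIK channels and THIK-2 are weakly active or partly silent when expressed alone. In mouse corticotropes, TREK-1 is known to carry a background current that corticotropin-releasing hormone reduces.

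The values are FPKM, fragments per kilobase of transcript scaled per library, as the authors deposited them. The deposited columns had nearly the same sum over all transcripts, from 729482 to 729485 FPKM. Each column was divided here by a scaling factor so that the median gene does not differ between cell types. Low values were spaced by whole reads, and from this spacing the reads behind a value were inferred. For a given transcript, 1 FPKM stood for 1.90 and 2.04 times as many reads in melanotrope replicates 1 and 2, and for 2.00 times as many in corticotrope replicate 2, as in corticotrope replicate 1. Corticotrope replicate 1 was thus the shallowest library, and the reads inferred over the longest transcripts ranged from 97643188 to 186841265. A gene was tested where it reached 1 FPKM in at least 2 libraries, and it was called where the p-value from limma, adjusted over all genes tested, was under 0.05. Most defining genes of the 2 cell types differed in the direction of the labels. Among all 13046 genes tested, 18.9% were called higher in melanotropes and 18.3% lower, 37.2% in either direction. Of 7 melanotrope markers 6 were higher in melanotropes, among them the dopamine receptor Drd2 at 104 and 114 FPKM in melanotropes, against 17.6 and 16.6 FPKM in corticotropes, and Esrrg was lower. All 7 corticotrope markers were lower in melanotropes, among them the vasopressin receptor Avpr1b at 0.309 and 0.293 FPKM in melanotropes, against 17.4 and 17.6 FPKM in corticotropes. Esrrg, Avpr1b, Neurod1, Gpc5 and Cdh8 reached the expression minimum through their corticotrope libraries alone, so their calls add nothing to their levels. Crhr1, Nr3c1 and Pcsk1 reached it in both cell types and were called lower in melanotropes. Markers of the other anterior pituitary lineages had a summed level of 14.8 and 62.9 FPKM in melanotropes against 5871 and 5638 FPKM in corticotropes. All 13 were lower in melanotropes without overlap. Of these, Tshb, Pou1f1, Ghrhr, Gnrhr, Nr5a1, Foxl2, Dlk1 and Gata2 reached the expression minimum through their corticotrope libraries alone. Their calls therefore add nothing to their levels. Most markers of the posterior lobe, glia and stem cells went the other way, with 5 of 6 tested genes higher in melanotropes. Of these, Rax reached the expression minimum through its melanotrope libraries alone. Among the untested genes, Nkx2-1, Gfap and Sox10 were higher in melanotropes, Aqp4 and Fabp7 lower, and S100b overlapped. The summed level of the list was 54.6 and 59.0 FPKM in melanotropes against 21.0 and 24.6 FPKM in corticotropes. Sox2 gave 23.0 and 25.5 FPKM of it in melanotropes and 13.0 and 15.8 FPKM in corticotropes. None of the 12 genes on that list was at 0 in any library, and Sox10 was under 0.1 FPKM in all 4.

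The members made up a different mixture in the 2 cell types. In melanotropes Kcnk1 led, at 51.6% to 56.5% of the summed FPKM of the 10 members, followed by Kcnk3, Kcnk6 and Kcnk12, which together form a middle tier with overlapping replicate ranges. In corticotropes Kcnk2 led at 42.9% to 49.0%, Kcnk1 followed at 30.8% to 36.1%, and Kcnk9 came next at 8.23% to 8.27%. The summed level of the 10 members was 37.2 and 36.9 FPKM in melanotropes and 61.1 and 58.8 FPKM in corticotropes. These sums are descriptions over the chosen members and carry no test. In melanotropes the order by mean level ran Kcnk1, Kcnk3, Kcnk6, Kcnk12, Kcnk2, Kcnk9, Kcnk5, Kcnk10, Kcnk13 and Kcnk4, in which the replicate ranges of Kcnk3 and Kcnk6, of Kcnk6 and Kcnk12, and of Kcnk13 and Kcnk4 overlapped. In corticotropes it ran Kcnk2, Kcnk1, Kcnk9, Kcnk12, Kcnk6, Kcnk3, Kcnk10, Kcnk5, Kcnk4 and Kcnk13, and no neighbours overlapped.

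**Figure D1:**
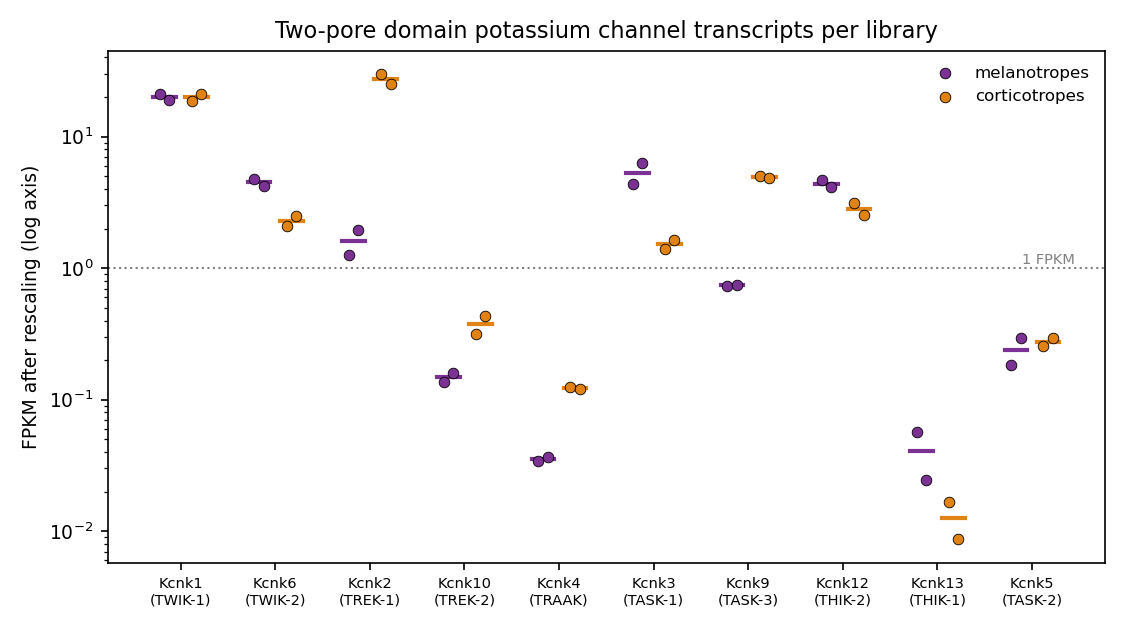
FPKM after rescaling, on a log axis, for each of the 10 K2P genes, ordered by family, in 2 melanotrope libraries (purple, left) and 2 corticotrope libraries (orange, right). Points are libraries, bars are means, and the dotted line marks 1 FPKM. Kcnk2 and Kcnk9 sit far lower in melanotropes, Kcnk3 and Kcnk6 higher, and the Kcnk1 points overlap near 20.0 FPKM.

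**Figure D2:**
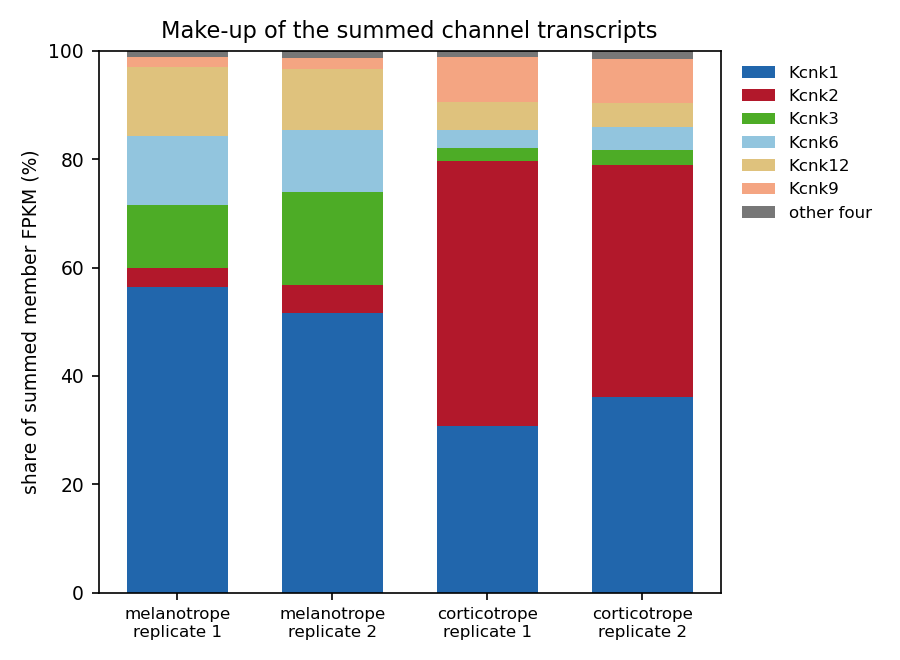
Share of each member in the summed FPKM of the 10 K2P genes (percent, vertical axis), with the melanotrope libraries on the left and the corticotrope libraries on the right. Kcnk1 fills over 50% of both melanotrope bars, and Kcnk2 fills 3.42% and 5.26% of them, against 49.0% and 42.9% of the corticotrope bars.

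The TREK family held the largest difference. Kcnk2 encodes TREK-1, the mechano-gated and lipid-gated channel that protein kinase A closes. It stood at 1.27 and 1.94 FPKM in melanotropes, against 29.9 and 25.2 FPKM in corticotropes. These values rest on about 849 and 1302 reads in melanotropes and 14544 and 23398 reads in corticotropes. Both melanotrope libraries were low and both corticotrope libraries high, with no overlap and a gap far wider than the replicate spread. The means were 1.61 ± 0.476 FPKM in melanotropes and 27.6 ± 3.32 FPKM in corticotropes (SD, n = 2 each), a ratio of 0.0582, or 17.2-fold more in corticotropes. On log2(FPKM + 1), a scale that shrinks differences between low values, the log2 fold change of melanotropes over corticotropes was -3.46 (SE 0.15, 95% interval -3.83 to -3.09, limma adjusted p = 6.96e-05). It ranked 30 from the lowest log2 fold change among the 13046 genes tested, and it was the lowest of the 45 tested genes whose symbol begins with Kcn. By level within those 45 it ranked 32 in melanotropes and 3 in corticotropes. The log2 fold change was -2.30 with a pseudocount of 5 and -4.04 with one of 0.1, and the call held under all 18 alternatives run (adjusted p from 7.61e-09 to 0.00206). Markers of other anterior pituitary lineages had a lower summed level in the same melanotrope libraries, and their part in the Kcnk2 difference was not tested. In these bulk libraries, fewer cells with a transcript and less of it per cell cannot be told apart. Set against Kcnk1 within each library, which no scaling between libraries can move, Kcnk2 had 0.0605 and 0.102 times the level of Kcnk1 in melanotropes and 1.59 and 1.19 times in corticotropes.

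The other TREK relatives were near the bottom of the range. Kcnk10 encodes TREK-2, a close relative of TREK-1 that can pair with it. Its level was 0.137 and 0.159 FPKM in melanotropes, against 0.314 and 0.433 FPKM in corticotropes, which stood for about 66 and 77 reads in melanotropes and 110 and 290 reads in corticotropes. Kcnk4 encodes TRAAK, a mechanosensitive channel best known from neurons and their nodes of Ranvier. It was at 0.0343 and 0.0366 FPKM in melanotropes, against 0.124 and 0.121 FPKM in corticotropes, or about 11 and 12 reads in melanotropes and 30 and 56 reads in corticotropes. The libraries did not overlap for either gene, but both fell under the expression minimum of 1 FPKM in 2 libraries and were not tested. With no expression minimum, 25.2% of 20297 genes were called, 13.2% lower. Both genes were then called lower in melanotropes, Kcnk10 with a log2 fold change of -0.26 (limma adjusted p = 0.0316) and Kcnk4 with one of -0.12 (adjusted p = 0.0141). Kcnk4 was deposited at 0.03 FPKM in both melanotrope libraries, where rounding blurs the counts by up to 1.89 and 2.02 reads. Its replicate spread there is not resolved, which limits its p-value. Within the family Kcnk2 held nearly the whole signal in both cell types: Kcnk10 had 0.108 and 0.0818 times the level of Kcnk2 in melanotropes and 0.0105 and 0.0172 times in corticotropes.

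Kcnk2 is listed with 4 RefSeq transcripts that begin at different sites on the minus strand of chromosome 1 (mm10) and share their end at 189207930. The starts lie at 189343353, 189343707, 189344192 and 189402273. All 4 gave nearly the same difference in a fit over 19847 transcripts, with log2 fold changes of -3.48, -3.46, -3.47 and -3.47 in the order of those starts (limma adjusted p = 7.41e-05 to 7.57e-05). Of those 19847 transcripts, 38.3% were called, 19.2% higher and 19.1% lower. Reads in shared exons enter every row, so the rows are not independent and do not show which start was used. The level of the other transcripts relative to the longest lay between 0.987 and 1.04 in melanotropes and between 0.996 and 1.03 in corticotropes, so that no shift between these transcripts was visible on the scale of this table. GENCODE M21, on the same build, places 277 and 202 exonic bases of the antisense gene A430027H14Rik over the transcripts that start at 189343707 and 189344192. The other 2 transcripts had no such overlap in GENCODE, whose models of them are shorter, at 1548 and 1373 bases against 3397 and 3130 deposited. Their log2 fold changes were within 0.02 of these. Because the 4 rows share reads, this does not test whether antisense reads entered the values.

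The sequences before 2 of these starts are shown with those of Kcnk12 and Kcnk1 because the first gene was much lower in melanotropes, Kcnk12 slightly higher, and Kcnk1 not called. Each is the 250 bases before a RefSeq start (GRCm38.p6), 5′ to 3′ on the gene's own strand, and capitals mark CAGNTG, the E-box form that NEUROD1 and related factors bind, on either strand.
Kcnk2, start at 189343707 (chr1:189343708-189343957, minus strand): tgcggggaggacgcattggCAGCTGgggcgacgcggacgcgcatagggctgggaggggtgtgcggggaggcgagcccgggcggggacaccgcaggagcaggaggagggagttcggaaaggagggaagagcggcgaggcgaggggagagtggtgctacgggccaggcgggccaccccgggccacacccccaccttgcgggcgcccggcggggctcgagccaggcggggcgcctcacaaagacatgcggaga
Kcnk2, start at 189402273 (chr1:189402274-189402523, minus strand): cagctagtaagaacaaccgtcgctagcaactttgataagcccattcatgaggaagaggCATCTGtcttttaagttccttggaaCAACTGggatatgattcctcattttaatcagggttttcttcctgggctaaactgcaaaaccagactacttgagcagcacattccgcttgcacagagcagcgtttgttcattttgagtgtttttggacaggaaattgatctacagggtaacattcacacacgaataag
Kcnk12 (chr17:87797995-87798244, minus strand): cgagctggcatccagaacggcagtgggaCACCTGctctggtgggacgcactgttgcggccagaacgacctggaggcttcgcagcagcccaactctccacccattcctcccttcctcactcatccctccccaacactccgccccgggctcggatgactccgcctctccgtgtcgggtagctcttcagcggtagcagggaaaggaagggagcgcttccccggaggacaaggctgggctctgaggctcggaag
Kcnk1 (chr8:125994852-125995101, plus strand): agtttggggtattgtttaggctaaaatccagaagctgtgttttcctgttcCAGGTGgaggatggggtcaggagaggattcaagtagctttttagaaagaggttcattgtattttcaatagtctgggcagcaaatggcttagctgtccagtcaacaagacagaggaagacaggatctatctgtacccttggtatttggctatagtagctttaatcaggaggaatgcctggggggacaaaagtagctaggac
The Kcnk2 windows differ in base composition, with 74.4% G and C before the start at 189343707 and 42.4% before the distal start, against a median of 52.4% over 32851 windows of the same length. The Kcnk12 window had 64.8% and that of Kcnk1 44.4%. RefSeq entries matched 7 members by symbol, with 11 windows, of which the pair of Kcnk10 begins at other sites than its transcript in the table. CAGNTG occurred in 8 of the 11 windows and in 44.8% of all windows, so it is common in either. The Kcnk2 window before the start at 189343353, which is not shown, did not hold it. Further motifs were searched on both strands: the PITX site TAATCC (6.25% of all windows), the palindromic homeodomain site of PAX type (0.384%), the NR4A site AAAGGTCA (1.34%), the glucocorticoid response element (0.00913%), the cyclic AMP response element TGACGTCA (1.55%) and the T-box site TCACACC (3.33%). None of them occurred in the 11 windows, which says only that these letters are not in these windows. Kcnk3, Kcnk6 and Kcnk9 were not matched.

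The TASK family exchanged its leading member. Kcnk3 encodes TASK-1 and Kcnk9 encodes TASK-3, acid-sensitive leak channels that can form mixed dimers. Both genes have 2 exons, Kcnk3 at chr5:30588170-30625270 on the plus strand and Kcnk9 at chr15:72512119-72546279 on the minus strand (mm10). Kcnk3 stood at 4.33 and 6.33 FPKM in melanotropes, against 1.40 and 1.64 FPKM in corticotropes. The melanotrope libraries lay above both corticotrope libraries, though they differed more from each other than the corticotrope pair did. The means of Kcnk3 were 5.33 ± 1.41 FPKM in melanotropes and 1.52 ± 0.174 FPKM in corticotropes (SD, n = 2 each), a 3.50-fold difference, with a log2 fold change of 1.31 (SE 0.16, limma adjusted p = 0.00215). It was called higher under all 18 alternatives run, with log2 fold changes from 0.66 at a pseudocount of 5 to 1.72 (adjusted p from 1.36e-06 to 0.0157). GENCODE places 229 exonic bases of Gm9899 over the Kcnk3 transcript on the other strand, and the strand setting of the counting is not stated.

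Kcnk9 stood at 0.732 and 0.745 FPKM in melanotropes, against 5.05 and 4.84 FPKM in corticotropes, or about 169 and 172 reads in melanotropes and 848 and 1550 reads in corticotropes. The replicates of each cell type lay close together and far from the other cell type. The log2 fold change of Kcnk9 was -1.77 (SE 0.09, limma adjusted p = 9.60e-05), and the ratio of mean FPKM was 0.149, or 6.70-fold more in corticotropes. Kcnk9 passed the expression minimum through its corticotrope libraries alone, and a gene that passes in that way has to differ. The log2 fold change was -0.79 with a pseudocount of 5 and -2.59 with one of 0.1, and Kcnk9 was called lower under all 16 alternatives in which it was tested. Without a corticotrope library it failed the minimum. With the minimum lowered to 1 library, an alternative chosen after seeing the data, its log2 fold change was -1.73 without corticotrope replicate 1 and -1.79 without corticotrope replicate 2. There it passed through the 1 corticotrope library left, whose spread is assumed to be like that of the melanotrope pair, so these values do not test the call. Its listed transcript counts 1206 bases, the same number as its coding sequence without the stop codon in GENCODE, whose matching transcript has 12300 bases. Reads in the untranslated part therefore do not enter the value.

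Within each library, the level of Kcnk3 was 5.92 and 8.49 times that of Kcnk9 in melanotropes and 0.277 and 0.340 times in corticotropes. The order of the 2 genes was thus opposite in the 2 cell types in every library, whatever the scaling between libraries. The summed TASK level overlapped between the cell types, at 5.07 and 7.07 FPKM in melanotropes against 6.45 and 6.48 FPKM in corticotropes, where the melanotrope values lie on both sides of the corticotrope pair. Markers of posterior lobe, glia and stem cells had a higher summed level in the melanotrope libraries, and those of other anterior lineages a lower one. The part of these cells in the Kcnk3 and Kcnk9 differences was not tested.

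The TWIK family held a gene that was not called and a higher one. Kcnk1 encodes TWIK-1, the founding mammalian K2P channel, whose current is small and regulated by its retrieval from the cell surface. Its 3 exons lie at chr8:125995102-126030688 on the plus strand (mm10). It stood at 21.0 and 19.1 FPKM in melanotropes, against 18.8 and 21.2 FPKM in corticotropes, and the libraries of the 2 cell types interleaved. The log2 fold change of Kcnk1 was 0.0016 (SE 0.09, 95% interval -0.23 to 0.23, limma adjusted p = 0.992), an interval that leaves room for differences of up to 0.23 on the log2 scale in either direction. On the deposited scale, where the median log2 fold change of all genes was -0.42, Kcnk1 was called lower in melanotropes (log2 fold change -0.46, adjusted p = 0.00886; range over 18 alternatives 0.00886 to 0.994). On that scale 73.9% of 13153 genes were called, 7.14% higher and 66.8% lower. Pomc transcripts held 49.7% and 50.9% of the summed deposited FPKM in melanotropes, against 27.8% and 27.2% in corticotropes. With the columns set to equal sums of all transcripts other than Pomc, the median log2 fold change was 0.057. Kcnk1 was then at 0.061 (limma adjusted p = 0.649). Kcnk1 was the fifth most abundant of the 45 tested Kcn genes in both cell types. The 3 tested genes closest to it by Euclidean distance in log2(FPKM + 1) over the 4 libraries were Lsm8 (0.0941), Polr1d (0.106) and Rnf34 (0.108), which share its level near 20.0 FPKM in both cell types. GENCODE places 179 exonic bases of the antisense gene Gm45875 over the Kcnk1 transcript.

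Kcnk6 encodes TWIK-2, a channel of endolysosomal and plasma membranes known from vascular and immune cells, from 3 exons at chr7:29221928-29232522 on the minus strand (mm10). It stood at 4.75 and 4.23 FPKM in melanotropes, against 2.08 and 2.51 FPKM in corticotropes. Both melanotrope libraries were above both corticotrope libraries, with means of 4.49 ± 0.367 FPKM in melanotropes and 2.29 ± 0.307 FPKM in corticotropes (SD, n = 2 each). Its log2 fold change was 0.74 (SE 0.11, limma adjusted p = 0.00379), the ratio of means was 1.96, and it was called higher under all 18 alternatives, with log2 fold changes from 0.37 to 0.94 (adjusted p from 9.57e-05 to 0.0301). The lowest of these came from the deposited scale. Relative to Kcnk1 in the same library, Kcnk6 was at 0.226 and 0.222 in melanotropes and at 0.110 and 0.118 in corticotropes. Some markers of microglia and macrophages moved in the same direction in these libraries. C1qa was at 5.56 and 7.05 FPKM in melanotropes against 1.61 and 2.40 FPKM in corticotropes. Csf1r was at 1.77 and 2.42 FPKM in melanotropes against 0.397 and 0.563 FPKM in corticotropes. Of the 7 tested genes of the microglia, macrophage and blood list 4 were higher and 2, both haemoglobins, lower. Of these, Cx3cr1 and Csf1r reached the expression minimum through their melanotrope libraries alone. Cd68 was not called (limma adjusted p = 0.0697), and Ptprc was not tested and overlapped between the cell types. The summed level was 16.7 and 21.9 FPKM in melanotropes against 23.2 and 30.6 FPKM in corticotropes. Most of the corticotrope sum came from the haemoglobins, with Hbb-b1 at 13.6 and 18.6 FPKM in corticotropes against 1.16 and 2.57 FPKM in melanotropes. On the same list, the T cell gene Cd3e was listed at 0 in all libraries other than corticotrope replicate 2. Markers of endothelium, pericytes and fibroblasts went both ways, with 2 of 7 tested genes higher and 4 lower. Of these, Lum reached the expression minimum through its melanotrope libraries alone, and Emcn and Rgs5 through their corticotrope libraries alone. The summed level of the list was 19.6 and 14.5 FPKM in melanotropes against 17.01 and 23.78 FPKM in corticotropes. The endothelial gene Plvap was lower, at 2.08 and 1.21 FPKM in melanotropes against 6.08 and 9.79 FPKM in corticotropes, and the fibroblast gene Dcn higher, at 9.94 and 7.01 FPKM in melanotropes against 2.46 and 2.93 FPKM in corticotropes. None of the 10 genes on that list was at 0 in any library. The part of all these cells in the Kcnk6 difference was not tested.

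The THIK and TALK families contributed smaller values. Kcnk12 encodes THIK-2, a subunit that is largely kept inside the cell when expressed alone, from 2 exons at chr17:87745821-87797994 on the minus strand (mm10). It stood at 4.68 and 4.12 FPKM in melanotropes, against 3.14 and 2.53 FPKM in corticotropes. The 2 pairs did not overlap but lay close, with a ratio of means of 1.55. Its log2 fold change was 0.50 (SE 0.12, limma adjusted p = 0.0205), the smallest of the called members. Relative to Kcnk1 in the same library, Kcnk12 was at 0.223 and 0.216 in melanotropes and at 0.167 and 0.119 in corticotropes, again without overlap. The call of Kcnk12 was lost on the deposited scale (log2 fold change 0.12, adjusted p = 0.456), with no expression minimum (adjusted p = 0.0616), without melanotrope replicate 1 (0.0958) and without corticotrope replicate 2 (0.0764, and 0.0818 with the minimum at 1 library), while it held in the other 13 of 18 alternatives (adjusted p from 4.55e-04 to 0.0439). Kcnk13 encodes THIK-1, the main K2P channel of microglia. It was at 0.0572 and 0.0244 FPKM in melanotropes, against 0.0165 and 0.00865 FPKM in corticotropes, about 34 and 15 reads in melanotropes and 7 and 7 reads in corticotropes. FPKM were deposited to 2 decimals, which blurs each of these counts by up to 1.79 to 3.64 reads. Kcnk5 encodes TASK-2, an alkaline-activated channel of kidney epithelium that belongs to the TALK family by sequence. It was at 0.183 and 0.293 FPKM in melanotropes, against 0.256 and 0.294 FPKM in corticotropes, and the libraries overlapped. Neither Kcnk13 nor Kcnk5 reached the expression minimum. With no minimum, neither was called (limma adjusted p = 0.261 for Kcnk13 and 0.606 for Kcnk5).

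Of the 10 members 6 were tested, of which 3 were called higher in melanotropes (Kcnk3, Kcnk6 and Kcnk12), 2 lower (Kcnk2 and Kcnk9), and Kcnk1 was not called. Kcnk9 passed the expression minimum through its corticotrope libraries alone, so its call adds nothing to its levels. The shares over all 13046 genes tested were 18.9% and 18.3%, or 37.2% in either direction, with a median log2 fold change of 0.0009. Of all 10 members, the libraries of the 2 cell types did not overlap for 8, with 4 higher in melanotropes and 4 lower. Over the 20297 genes above 0 in any library this held for 64.2%, so that such a separation is common in this table. Among the separated members, Kcnk13 was deposited at 0.02 FPKM in both melanotrope replicate 2 and corticotrope replicate 1. These libraries came apart for Kcnk13 only after rescaling. The other potassium channel genes with a Kcn symbol went both ways, with 16 of 39 tested higher and 13 lower and a median log2 fold change of 0.011. In the authors' deposited table, Kcnk2 was the sole member with an FDR under 0.05, at a log2 fold change of -4.08 to -4.03 and an FDR of 4e-11 to 1.31e-10 over its 4 transcripts. That table called 1.10% of its transcripts lower at this FDR. Several Kcnk2 transcripts with different FPKM shared the same log2 fold change and FDR in it. Kcnk4, Kcnk5, Kcnk10 and Kcnk13 were all listed there at a log2 fold change of 0. The edgeR input was therefore coarser than the FPKM deposited, which limits what its FDR can show for members at a few FPKM. For Kcnk9 the authors' deposited table gave a log2 fold change of -2.13 with an FDR of 0.719, and for Kcnk3 one of 1.72 with an FDR of 1.

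**Figure D3:**
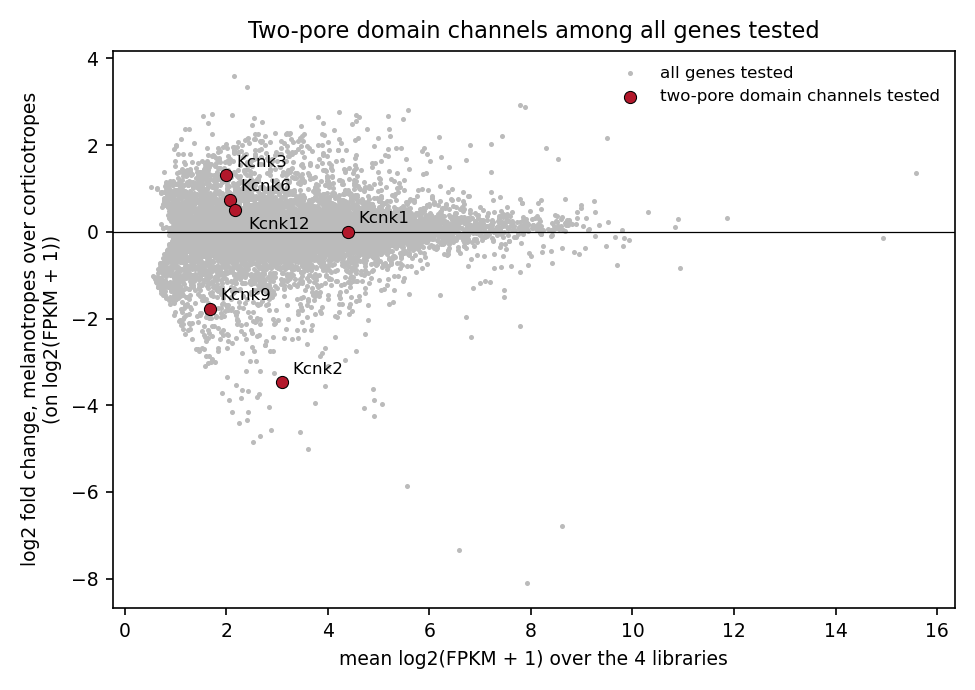
Log2 fold change of melanotropes over corticotropes on log2(FPKM + 1) (vertical axis) against the mean log2(FPKM + 1) over the 4 libraries, for 13046 genes tested (grey) and the 6 K2P genes among them (red). Kcnk2 at -3.46 and Kcnk9 at -1.77 lie below the bulk of genes, and Kcnk3, Kcnk6 and Kcnk12 lie above the zero line at 1.31, 0.74 and 0.50.

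**Figure D4:**
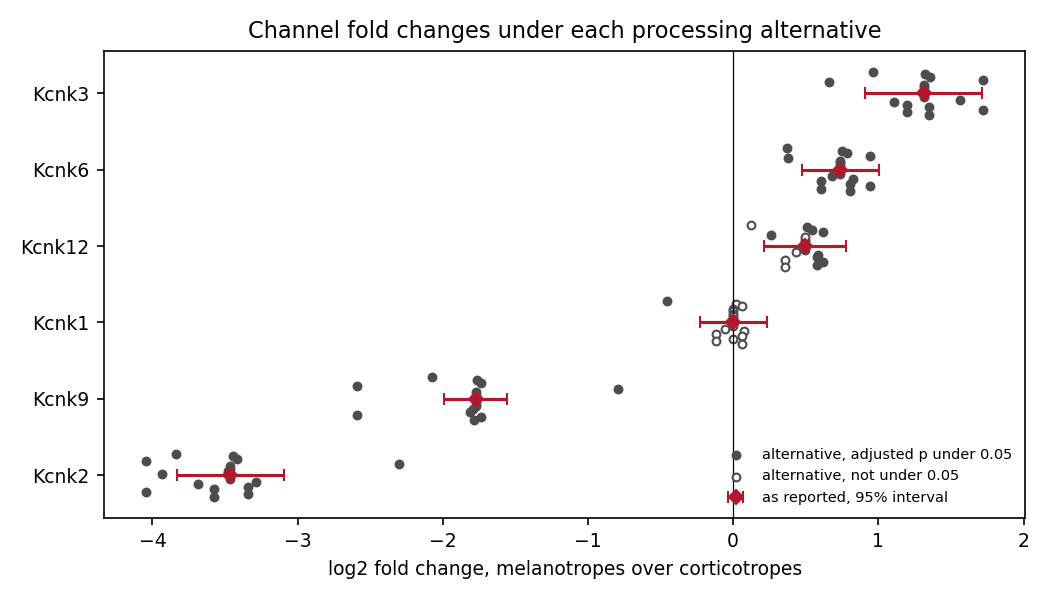
Log2 fold change of melanotropes over corticotropes for the 6 tested K2P genes. Red diamonds with bars are the reported values with 95% intervals, and dots are processing alternatives, filled where the adjusted p was under 0.05. Kcnk2 and Kcnk9 stay left of zero and Kcnk3 and Kcnk6 right of it under each alternative run, Kcnk12 has 5 open dots, and Kcnk1 is filled once, at -0.46.

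The remaining K2P genes of the mouse were at or near the floor of the table. Kcnk16, the pancreatic channel TALK-1, was listed at 0 in all 4 libraries, and Kcnk15 did not exceed 0.0122 FPKM. Kcnk7 was at 0.183 and 0.110 FPKM in melanotropes, against 0.108 and 0.0952 FPKM in corticotropes. Kcnk18, the calcineurin-regulated channel TRESK, was at 0.0572 and 0.0733 FPKM in melanotropes, against 0.00827 and 0.0173 FPKM in corticotropes. None of the 4 reached the expression minimum.

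Genes known to carry K2P channels to the membrane or to bind them were called in the higher direction or not at all, and the higher share was near that of all genes. Of 18 listed, 17 were tested, 4 were higher in melanotropes, 0 lower and 13 not called by limma, against 18.9% higher and 18.3% lower over all genes tested. Before adjustment 3 of the 13 had a p under 0.05, Pld2 on the lower side (log2 fold change -0.42) and Psd and Ywhag on the higher side (0.26 and 0.25). Their adjusted p from limma were 0.0502 for Pld2, 0.0541 for Psd and 0.0723 for Ywhag. The list had a median log2 fold change of 0.11. Those with the smallest adjusted p were Ywhaz, a 14-3-3 protein that helps TASK channels leave the endoplasmic reticulum, and Arf6, a GTPase of the recycling route used by TWIK-1. Ywhaz stood at 54.1 and 54.1 FPKM in melanotropes, against 37.5 and 36.6 FPKM in corticotropes (log2 fold change 0.53, limma adjusted p = 0.00250), a call that did not hold on the deposited scale (0.063, adjusted p = 0.483). Arf6 stood at 30.2 and 31.2 FPKM in melanotropes, against 21.8 and 24.8 FPKM in corticotropes. Its log2 fold change of 0.39 (limma adjusted p = 0.0187) was -0.077 on the deposited scale, and the call was lost without melanotrope replicate 2 (adjusted p = 0.0697) or corticotrope replicate 1 (0.123).

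Genes of the signals that close or open K2P channels were called in both directions, at a rate near that of all genes. Of 15 listed, 14 were tested, 4 were higher in melanotropes and 2 lower, against 37.2% called in either direction over all genes tested, with a median log2 fold change of -0.073. Prkce, the epsilon form of protein kinase C, was lower at 3.26 and 3.62 FPKM in melanotropes, against 9.18 and 11.7 FPKM in corticotropes (log2 fold change -1.36, limma adjusted p = 7.10e-04). Gnaq, the alpha subunit of Gq through which receptors close TASK channels, was lower at 14.8 and 16.3 FPKM in melanotropes, against 19.2 and 20.7 FPKM in corticotropes (log2 fold change -0.34, adjusted p = 0.0255), a call lost without melanotrope replicate 1 (0.126) or corticotrope replicate 2 (0.0827). Prkg1, the cyclic GMP-dependent kinase, was higher at 1.68 and 1.44 FPKM in melanotropes, against 0.372 and 0.320 FPKM in corticotropes (log2 fold change 0.93, limma adjusted p = 0.00134). Pip5k1b, which makes the membrane lipid PIP2, was higher at 2.28 and 3.92 FPKM in melanotropes, against 0.893 and 0.995 FPKM in corticotropes (log2 fold change 1.05, limma adjusted p = 0.00924). Prkg1 and Pip5k1b both reached the expression minimum through their melanotrope libraries alone, and genes that pass in that way have to differ, so their calls add nothing to the levels.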

How the data were processed

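RNA depleted of ribosomal RNA was sequenced as paired 50 base reads, per the labels. The authors deposited FPKM per RefSeq transcript, made with HOMER on mm10 by counting exons, per the file headers, and log2 fold changes with p-values and FDR from edgeR run on those FPKM, per the file headers. Their deposited fold change column equals 10 raised to that log2 value in 100% of rows and was left aside. The log2 column is headed as corticotropes against melanotropes, but its sign ran as melanotropes over corticotropes in 97.4% of rows at least 2 in size. Transcript lengths were also deposited. TopHat is named by the submitters' processing notes, without a version.

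The members and the gene lists were chosen with earlier results of these data known. The columns were divided by factors from an unweighted trimmed mean of M values (trimming 30% of M and 5% of A, over genes with at least 1 deposited FPKM in 2 libraries), 0.874 and 0.819 for melanotropes and 1.21 and 1.16 for corticotropes. The longest transcript stood for a gene. Genes reaching 1 FPKM in 2 or more libraries were tested on log2(FPKM + 1) with limma 3.58.1 in R 4.3.3 (trend, two-sided, Benjamini-Hochberg adjustment over all genes, threshold 0.05, 2 residual and 3.80 prior degrees of freedom). The fit was also run on normal values simulated from its own means and variances. That run checks the code and does not test the calls made here from 2 libraries per cell type. Reads were inferred from the spacing of low values, within 0.1 step of whole for 99.6% to 100% of them, and cover counting error only. Whether a read pair counted once is not stated, nor is the strand setting. Named genes were all members, the other K2P genes, up to 2 genes per direction of each list with the smallest adjusted p, and the 3 genes nearest the most abundant member. Others were chosen after their values were seen. There were 15 alternatives listed with the design and 3 added after seeing the data.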

Additional observations from a re-analysis of the deposited data

How the results depend on the processing

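With no expression minimum, 4 members were called lower in melanotropes (Kcnk4 and Kcnk10 besides Kcnk2 and Kcnk9), and likewise 4 when a pseudocount of 0.1 was used as well, a setting chosen after seeing the data. Leaving out 1 library gave 1 to 2 members called lower, because Kcnk9 fails the minimum with a corticotrope library gone, and 2 to 3 called higher, because of Kcnk12. Over all genes, 939 were called higher and 8787 lower on the deposited scale, against 2469 and 2390 after rescaling, and leaving out 1 library gave 1403 to 1760 higher and 1609 to 1673 lower. With a corticotrope library left out and the minimum also lowered to 1 library, 2143 and 2149 were lower. The log2 fold change of Kcnk1, near 0 as reported, was -0.46 on the deposited scale, and leaving out 1 library gave -0.11 (without corticotrope replicate 1, under either minimum) to 0.075, with -0.058 without melanotrope replicate 1. On the deposited scale Arf6 turned to -0.077 and Lhx3, a factor of the POMC lineage list, to -0.19. For single members, 97 of the recomputed values kept direction and side of the threshold, 5 lost the call (Kcnk12 each time) and 4 turned (Kcnk1 each time). The labels give replicates 1 and 2 of each cell type no link beyond the number. Their deviations correlated at 0.525 across genes, and with replicate number as a block 3661 genes were called higher and 3542 lower, with no member's call changed by the replicate block. With 2 libraries per cell type the replicate SD is itself poorly known, and FPKM rounded to 2 decimals limit what can be read from members under 0.1 FPKM.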
